A study of Rattus norvegicus with 16 samples.

Results

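Apc and the proteins that hold and destroy beta-catenin were followed here as transcripts in the distal colon of rats. The set was given as 9 genes, namely Apc, Ctnnb1, Gsk3b, Axin1, Csnk1a1, Btrc, Tcf7l2, Lef1 and Cdh1. A probe belonged to a gene when its RefSeq transcript accession mapped to that rat symbol and it was no control. By this rule 8 of the 9 genes had a probe, of 15159 genes with one, and they were read by 9 of 30367 probes, since Lef1 had 2. No probe matched Tcf7l2, which encodes the main DNA-binding partner of beta-catenin in the gut, and it was not analysed here.

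Normal tissue of the distal colon came from 16 male rats, 4 in each of 4 groups, all 97 days old, and total RNA of each was labelled with Cy3 for a single-colour Agilent array. The rats were F1 animals of an ACI by F344 cross. Wildtype rats carried 2 intact copies of Apc, and Pirc/+ rats were heterozygous for the Pirc allele, a germline nonsense mutation of Apc that is present in every cell and gives colonic tumors. In each genotype 4 rats were untreated and 4 had drunk 4% dextran sodium sulfate (DSS), which injures and inflames the colon, from day 40 to day 47 and again from day 54 to day 61, so that 36 days without DSS preceded sampling. The strain label reads (ACIxF344)F1-Pirc for all rats, also for the wildtype animals. How the tissue was taken from the colon wall is not given in the sources used here for these rats. It was a mixture of cells, in which fewer cells of a type and less RNA per cell cannot be told apart. Each group lay in 1 array column of the slides, so group and column cannot be told apart, whereas each of the 2 slides held 2 rats of every group.

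In an unstimulated cell, Apc and Axin1 are scaffolds on which the kinases Csnk1a1 and Gsk3b phosphorylate beta-catenin, the product of Ctnnb1. The phosphorylated protein is recognised by Btrc, an adaptor of a ubiquitin ligase, and degraded. When Wnt signals, or loss of Apc, stop this process, beta-catenin enters the nucleus and joins DNA-binding factors such as Lef1 and Tcf7l2. A second pool of beta-catenin is bound to E-cadherin, the product of Cdh1, at the junctions between epithelial cells. Most of this control acts on proteins, which the arrays did not measure.

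Levels are given as log2 of the processed signal minus log2 of the 75th percentile of the array. They place rats in order for 1 probe and say nothing about one probe against another. A gene passed the test at an adjusted p of 0.05 or less in limma, fitted on all 30367 probes with Benjamini-Hochberg adjustment. The words rose and fell are kept for genes that passed. The probes of Apc, Ctnnb1, Gsk3b, Axin1, Csnk1a1, Btrc and Cdh1 were well above background on all 16 arrays. The markers of colonic epithelium did so too for all 11 genes measured, so epithelium was present in every sample.

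The promoter of Apc is shown because Apc had the largest difference between genotypes after DSS among the members. Those given for Gsk3b, Btrc, Lef1, Ctnnb1 and Csnk1a1 overlap the annotated span of their genes, and Tcf7l2 had no probe. RefSeq (GRCr8) gives the 250 bases before the start of Apc as chr18:26138132-26138381 on the plus strand, with 46% G and C. Capitals mark a match to the core bound by TCF and LEF factors (CTTTGA or CTTTGT, either strand), whose first base lies 29 bases before the start, and a CCAAT box read on the opposite strand.
Apc: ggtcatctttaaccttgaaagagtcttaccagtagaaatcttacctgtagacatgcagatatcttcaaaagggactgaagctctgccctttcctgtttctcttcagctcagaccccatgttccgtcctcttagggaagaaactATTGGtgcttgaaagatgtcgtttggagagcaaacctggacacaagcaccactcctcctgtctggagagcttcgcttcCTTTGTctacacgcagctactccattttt
Of 33469 rat promoter windows of this length, 27.5% held such a TCF/LEF core and 34.0% a CCAAT box, so neither match sets Apc apart. A match is a description of letters and was not tested for binding. The gene itself spans 57640 bases of chromosome 18.

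Apc transcript was lower in Pirc than in wildtype rats after DSS, and no difference between the genotypes passed in untreated rats. The level was -3.39, -3.35, -2.94 and -3.32 in untreated wildtype rats 13, 17, 21 and 25, and -3.09, -3.40, -3.12 and -3.30 in untreated Pirc rats 11, 15, 19 and 23. The untreated groups covered the same range. The probe reads transcripts of both alleles, and the Pirc allele is a single base change, so the level does not check the genotype labels. After DSS the level was -2.82, -2.79, -3.11 and -3.24 in wildtype rats 14, 18, 22 and 26, and -3.64, -3.84, -4.08 and -3.70 in Pirc rats 12, 16, 20 and 24. All 4 DSS-treated Pirc rats lay below every other rat.

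In untreated rats the difference in Apc (Pirc minus wildtype) was 0.02 on the log2 scale, with a 95% interval from -0.30 to 0.35 (adjusted p = 0.975 in limma). This interval does not reach a factor of 2 in either direction, and a smaller difference within it cannot be told from none. The part of the mutant copy in the total Apc transcript was not tested. Among DSS-treated rats Apc was lower in Pirc rats by -0.82 ± 0.15 (SE), a factor of 1.77 (adjusted p = 0.0033). Within Pirc rats DSS-treated animals had less Apc than untreated ones (-0.59 ± 0.15, adjusted p = 0.0173 in limma), a call that was lost when rat 11, 19 or 20 was left out (highest adjusted p = 0.0625). Within wildtype rats the change with DSS was 0.26 with an interval from -0.06 to 0.58 (adjusted p = 0.439). The difference between the DSS effects of the 2 genotypes was -0.85 ± 0.21 and did not pass after adjustment over all probes (adjusted p = 0.199), so a different response of Apc in the 2 genotypes was not established. Over both treatments Apc was lower in Pirc rats by -0.40 ± 0.11 (adjusted p = 0.0191).

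**Figure D1:**
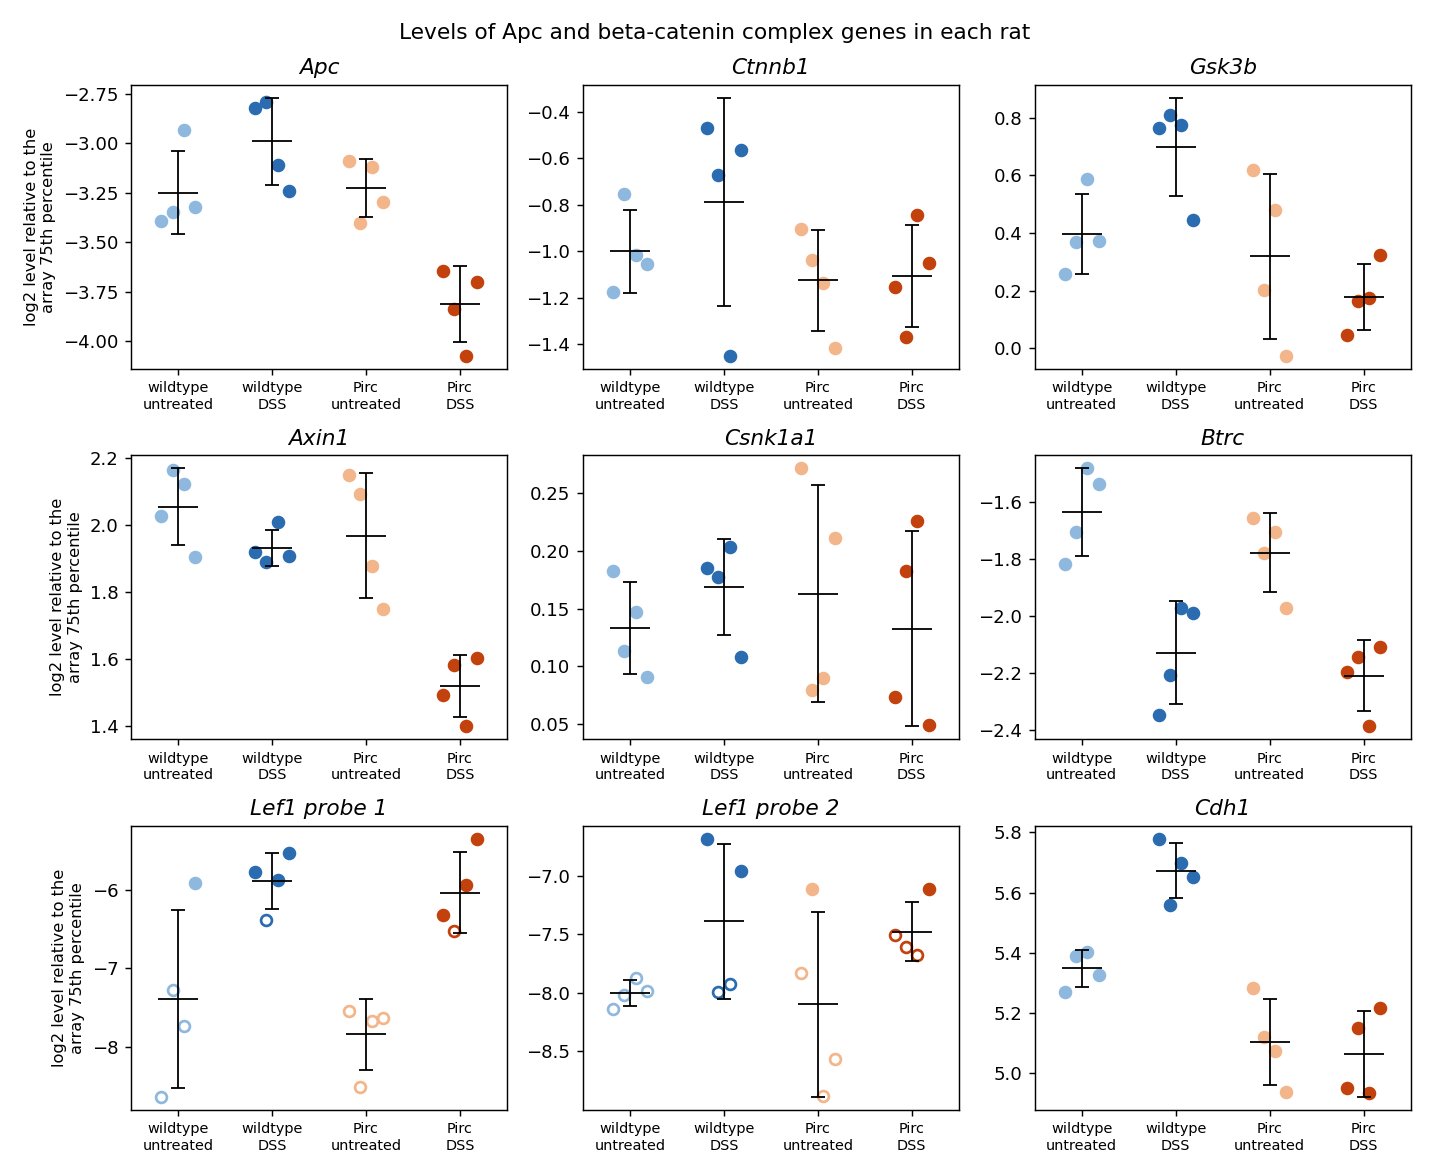
Level of each probe in each rat, as log2 relative to the 75th percentile of the array, for wildtype and Pirc rats without and with DSS (4 rats each); horizontal lines are group means and error bars are SD. Open symbols are values not well above background. The 4 DSS-treated Pirc rats lie between -4.08 and -3.64 for Apc and between 1.40 and 1.60 for Axin1, below all others, and both Lef1 panels hold mostly open symbols.

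Of the other parts of the destruction complex, Axin1 and Gsk3b were also lower in Pirc than in wildtype rats after DSS, whereas Csnk1a1 hardly varied. Axin1 is the scaffold that brings the kinases to beta-catenin. Its level was 1.49, 1.58, 1.40 and 1.60 in DSS-treated Pirc rats and 1.92, 1.89, 2.01 and 1.91 in DSS-treated wildtype rats. Untreated rats had 2.03, 2.16, 2.12 and 1.91 when wildtype and 2.15, 2.09, 1.88 and 1.75 when Pirc. DSS-treated Pirc rats were again lowest, with no overlap with any other group. Axin1 fell with DSS in Pirc rats (-0.45 ± 0.11, adjusted p = 0.0169 in limma) and over both genotypes (-0.29 ± 0.08, adjusted p = 0.0237). In wildtype rats the value was -0.12 with an interval from -0.37 to 0.12 (adjusted p = 0.687). The first of these calls was lost without rat 11, 15 or 20 (highest adjusted p = 0.0619) and the second without rat 11, 15, 17, 18 or 21 (highest adjusted p = 0.0581). Pirc rats had less Axin1 than wildtype rats after DSS (-0.41 ± 0.11, adjusted p = 0.0232), lost without rat 12, 20 or 22 (highest adjusted p = 0.0714). Over both treatments the difference was -0.25 ± 0.08 (adjusted p = 0.0473), and this call was lost on leaving out any 1 of rats 12 to 15, 17 to 23 or 26 (highest adjusted p = 0.098).

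Gsk3b encodes the kinase that prepares beta-catenin for degradation. It stood at 0.76, 0.81, 0.78 and 0.44 in DSS-treated wildtype rats and at 0.05, 0.17, 0.18 and 0.32 in DSS-treated Pirc rats. The lowest of these wildtype rats, rat 26, lay between the others and the highest Pirc rat. Gsk3b was lower in Pirc rats after DSS by -0.52 ± 0.15 (adjusted p = 0.0257 in limma). The call was lost on leaving out rat 12, 14, 18, 20 or 22 (highest adjusted p = 0.0730). In untreated rats levels ran from 0.26 to 0.59 in wildtype and from -0.03 to 0.62 in Pirc rats, and the difference was -0.08 with an interval from -0.39 to 0.24 (adjusted p = 0.889). Neither effect of DSS passed, with 0.30 in wildtype rats (adjusted p = 0.328) and -0.14 in Pirc rats (adjusted p = 0.627).

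Csnk1a1, the kinase that phosphorylates beta-catenin before Gsk3b, ranged from 0.05 to 0.27 over all 16 rats. None of its differences passed, and the intervals of the effects within 1 genotype or 1 treatment lay between -0.24 and 0.24.

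Btrc was the only member that passed with DSS within each genotype, and the brighter Lef1 probe missed the threshold in wildtype rats (adjusted p = 0.0815 in limma). Btrc stood at -1.82, -1.71, -1.48 and -1.54 in untreated wildtype rats and at -2.35, -2.21, -1.97 and -1.99 in DSS-treated wildtype rats. In Pirc rats it was -1.66, -1.78, -1.70 and -1.97 without DSS and -2.20, -2.14, -2.39 and -2.11 with it. Treated and untreated rats did not overlap within either genotype. Btrc fell by 0.46 ± 0.09 over both genotypes (adjusted p = 0.00257 in limma), a factor of 1.38, and this call held on leaving out any 1 rat. Within wildtype rats the fall was -0.49 ± 0.13 (adjusted p = 0.0465) and within Pirc rats -0.43 ± 0.13 (adjusted p = 0.036). The wildtype call was lost on leaving out any 1 of 11 rats, namely 11 to 15, 17 to 19, 21, 24 and 25 (highest adjusted p = 0.168), and the Pirc call without rat 11, 12, 15, 19 or 20 (highest adjusted p = 0.11). The DSS effects differed between genotypes by 0.06, with an interval from -0.33 to 0.45. The genotypes differed by -0.14 in untreated and -0.08 in DSS-treated rats, and neither passed (adjusted p = 0.77 and 0.695).

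Ctnnb1, the gene of beta-catenin itself, passed no test. Its level was -1.18, -0.75, -1.02 and -1.06 in untreated wildtype rats, -0.47, -0.67, -1.45 and -0.56 in DSS-treated wildtype rats, -0.90, -1.04, -1.13 and -1.42 in untreated Pirc rats and -1.15, -1.37, -0.85 and -1.05 in DSS-treated Pirc rats. All 4 groups overlapped, and rat 22 was well below the other DSS-treated wildtype rats. Between genotypes after DSS the difference was -0.32 with an interval from -0.75 to 0.12 (adjusted p = 0.315). Without rat 22 it was -0.54 and passed (adjusted p = 0.0446 in limma), so the missing call rested on that rat. The largest effect of DSS was 0.21, in wildtype rats, with an interval from -0.22 to 0.64 (adjusted p = 0.696).

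Cdh1, whose product binds beta-catenin at the adherens junction, was lower in Pirc rats. The level was 5.27, 5.39, 5.40 and 5.33 in untreated wildtype rats and 5.78, 5.56, 5.70 and 5.65 in DSS-treated wildtype rats. Pirc rats had 5.28, 5.12, 5.07 and 4.94 untreated and 4.95, 5.15, 4.93 and 5.22 after DSS. Every wildtype rat given DSS was above every other rat, and the groups of Pirc rats covered the same range. After DSS Cdh1 was lower in Pirc rats by -0.61 ± 0.11 (adjusted p = 0.0033 in limma), a factor of 1.53, and over both treatments by -0.43 ± 0.08 (adjusted p = 0.00342). Both calls held on leaving out any 1 rat. In untreated rats the difference of -0.24 (interval -0.48 to -0.01) did not pass after adjustment (adjusted p = 0.476). The change of 0.32 ± 0.11 with DSS in wildtype rats did not pass either (adjusted p = 0.135), although its groups did not overlap, and in Pirc rats the effect of DSS was -0.04 (interval -0.28 to 0.20).

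Lef1, a DNA-binding partner of beta-catenin that is also a gene of T cells, was dim. Its brighter probe was well above background on 7 arrays, of which 3 were of DSS-treated wildtype rats, 3 of DSS-treated Pirc rats and 1 of an untreated wildtype rat. Levels were -7.55, -8.52, -7.67 and -7.63 in untreated Pirc rats, none of them well above background, and -6.32, -6.52, -5.93 and -5.34 in DSS-treated Pirc rats. In wildtype rats they were -8.64, -7.28, -7.74 and -5.91 without DSS and -5.77, -6.38, -5.87 and -5.52 with it. All DSS-treated rats were above all untreated ones except for the untreated wildtype rat 25. The probe rose with DSS over both genotypes by 1.66 ± 0.32 (adjusted p = 0.0022 in limma).

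In Pirc rats the rise of Lef1 was 1.81 ± 0.45 (adjusted p = 0.0145), lost without rat 15 (adjusted p = 0.0533). The means were -6.03 with DSS and -7.84 without it, and since no untreated Pirc rat was well above background, the size of this change is not given as a fold. In wildtype rats the difference of 1.51 did not pass (adjusted p = 0.0815), but it did with slide as a block (adjusted p = 0.0448). The second probe was well above background on 4 arrays and did not pass with DSS (0.62 ± 0.25 over both genotypes, adjusted p = 0.114). With dim values set to a common floor of -6.22 the change of the brighter probe was 0.30 over both genotypes and 0.29 in Pirc rats, and neither passed (adjusted p = 0.167 and 0.389). With normexp background correction it was 0.22 over both genotypes, which passed (adjusted p = 0.0422), and 0.21 in Pirc rats, which did not (adjusted p = 0.162). Neither probe passed between genotypes, with -0.15 for the brighter one after DSS (interval -1.11 to 0.82).

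**Figure D2:**
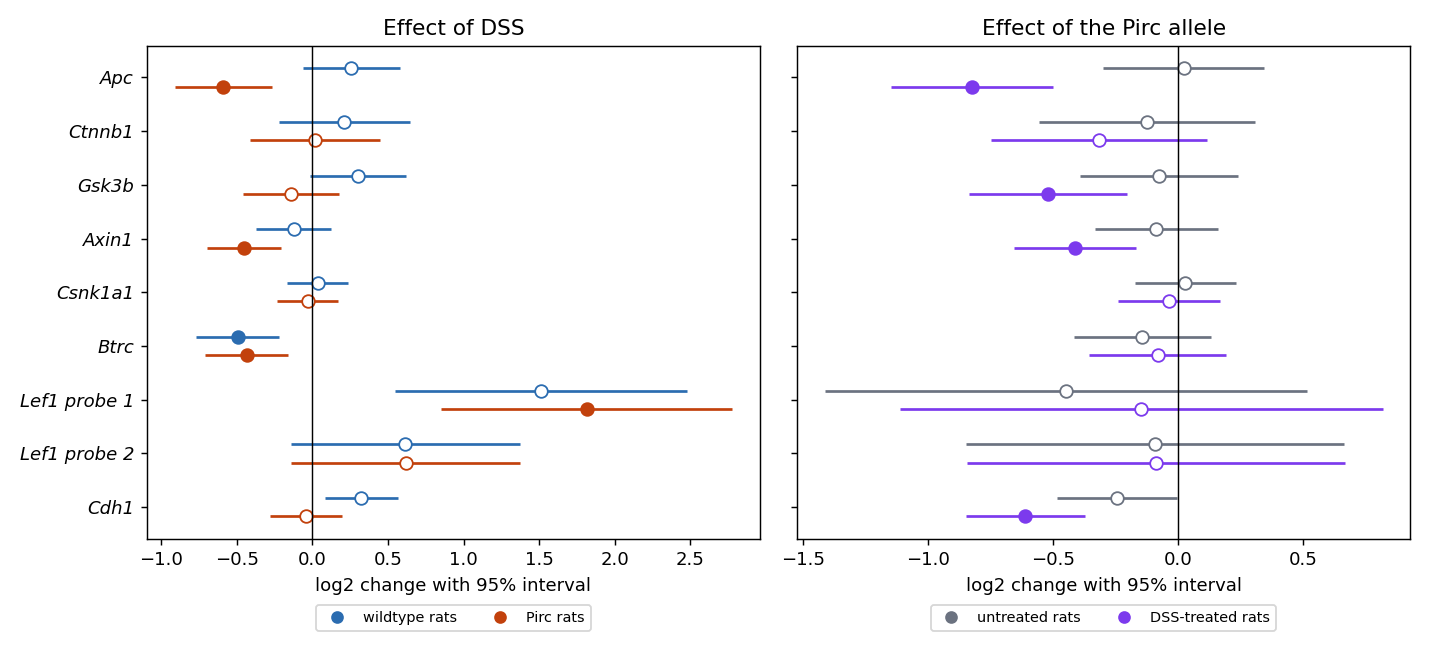
Log2 change with DSS in wildtype and in Pirc rats (left) and log2 difference of Pirc from wildtype rats without and with DSS (right); lines are 95% intervals and filled symbols passed at an adjusted p of 0.05 or less. Btrc is filled in both genotypes on the left (-0.49 and -0.43), and on the right no symbol is filled for untreated rats while Apc, Gsk3b, Axin1 and Cdh1 are filled after DSS (-0.82 to -0.41).

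Read against all probes, the counts of members were as follows. With DSS over both genotypes 1 of the 9 member probes rose (10.2% of all probes did) and 2 fell (6.99%), and 1 also changed by the factor of 2 that the study's methods ask for (5.99%). In Pirc rats 1 rose (8.14%) and 3 fell (6.51%), with 1 past a factor of 2 (7.46%). In wildtype rats none rose (2.94%), 1 fell (0.899%) and none passed a factor of 2 (2.77%). The brighter of the 2 dim Lef1 probes was behind each call of that size. Over both genotypes and in Pirc rats its change was only 0.30 and 0.29 with a floor, and 0.22 and 0.21 with normexp.

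Between genotypes no member rose over both treatments (9.26% of all probes) and 3 fell (8.27%), none by a factor of 2 (2.0%). After DSS none rose (9.47%) and 4 fell (8.76%), again none by a factor of 2 (5.47%). The difference after DSS was negative for all 9 member probes, passed or not, with a median of -0.32 against -0.11 for all probes. In untreated rats no member passed in limma, nor did any other probe (0%), and 1 member was among the 3103 probes with an unadjusted p under 0.05. For the difference between the DSS effects no member passed (0.0428% of all probes, or 13, did). There 2 of the 9 member probes had an unadjusted p under 0.05 in limma, as did 3234 of all 30367 probes.

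All 15 calls on single members named above had the same sign in each slide on its own, with 2 rats per group. The slides hold the same rats from which the calls were made, and each change is the mean of its 2 slide values. The shared sign is thus a description and no separate support. For Apc after DSS the difference between genotypes was -0.93 in slide 1 and -0.71 in slide 2, and for Cdh1 it was -0.62 and -0.60. The fall of Btrc over both genotypes was -0.48 and -0.44. With slide as a block each change stayed as it was, since the groups were balanced over the slides, and all 15 calls held. The comparisons of 1 genotype or 1 treatment share groups with those over both, so they are not independent of each other.

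Markers of other cells moved along the same comparisons. Of 11 epithelial genes, 5 were lower in Pirc than in wildtype rats after DSS, none was higher and 6 did not pass, with a median of -0.45. Those that were lower were Epcam (-0.56), Krt8 (-0.57), Vil1 (-0.62), Cldn3 (-0.49) and the chloride exchanger gene Slc26a3 (-2.25). Among those that did not pass, Cdx2 was at 0.40, Krt18 at 0.22 and Cldn7 at -0.05. The mean level of the 11 genes ran from 5.05 to 5.41 in DSS-treated Pirc rats, from 5.56 to 5.83 in DSS-treated wildtype rats, from 5.2 to 5.54 in untreated Pirc rats and from 5.40 to 5.72 in untreated wildtype rats. The DSS-treated genotypes did not overlap in it, but their mean difference of -0.43 was -0.25 without Slc26a3, and the mean of the other 10 genes did overlap (5.43 to 5.74 in Pirc and 5.72 to 5.98 in wildtype rats).

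The differences of Apc, Gsk3b, Axin1 and Cdh1 between genotypes after DSS were thus measured together with lower levels of some epithelial genes. When each array was scaled to the mean of the 11 epithelial genes instead, none of the 4 passed. Apc kept -0.39 ± 0.16 (adjusted p = 0.0883 in limma) and Cdh1 -0.18 ± 0.14 (adjusted p = 0.378). Gsk3b was at -0.09 ± 0.18 (adjusted p = 0.785) and Axin1 turned to 0.02 ± 0.14 (adjusted p = 0.937). Leaving Slc26a3 out of the scaling genes gave -0.57 for Apc, which then passed (adjusted p = 0.0246), -0.36 for Cdh1 (adjusted p = 0.0855), -0.27 for Gsk3b (adjusted p = 0.368) and -0.16 for Axin1 (adjusted p = 0.504). On the scale of the 11 genes Csnk1a1 was the gene that passed, higher in Pirc rats after DSS by 0.39 (adjusted p = 0.032). Without Slc26a3 among the scaling genes it was at 0.21 and did not pass (adjusted p = 0.264).

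Over both treatments the epithelial scale left -0.12 for Apc, -0.15 for Cdh1 and 0.03 for Axin1 (adjusted p = 0.497, 0.298 and 0.888), and none passed without Slc26a3 either. Among the effects of DSS, Btrc (-0.46) and the brighter Lef1 probe (1.67) passed over both genotypes on that scale. Within Pirc rats Apc (-0.43, adjusted p = 0.103), Axin1 (-0.29, adjusted p = 0.189) and Btrc (-0.27, adjusted p = 0.341) did not, nor did Axin1 over both genotypes (adjusted p = 0.0683) or Btrc in wildtype rats (-0.64, adjusted p = 0.0609). With Slc26a3 left out of the scaling genes, Apc (-0.59, adjusted p = 0.0305) and Axin1 (-0.45, adjusted p = 0.049) passed within Pirc rats, as did Axin1 over both genotypes (-0.35, adjusted p = 0.023). Btrc within Pirc rats (-0.43, adjusted p = 0.133) and within wildtype rats (-0.63, adjusted p = 0.0647) did not. In all, 3 of the 15 calls held on the scale of the 11 genes and 7 on that of the 10.

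**Figure D3:**
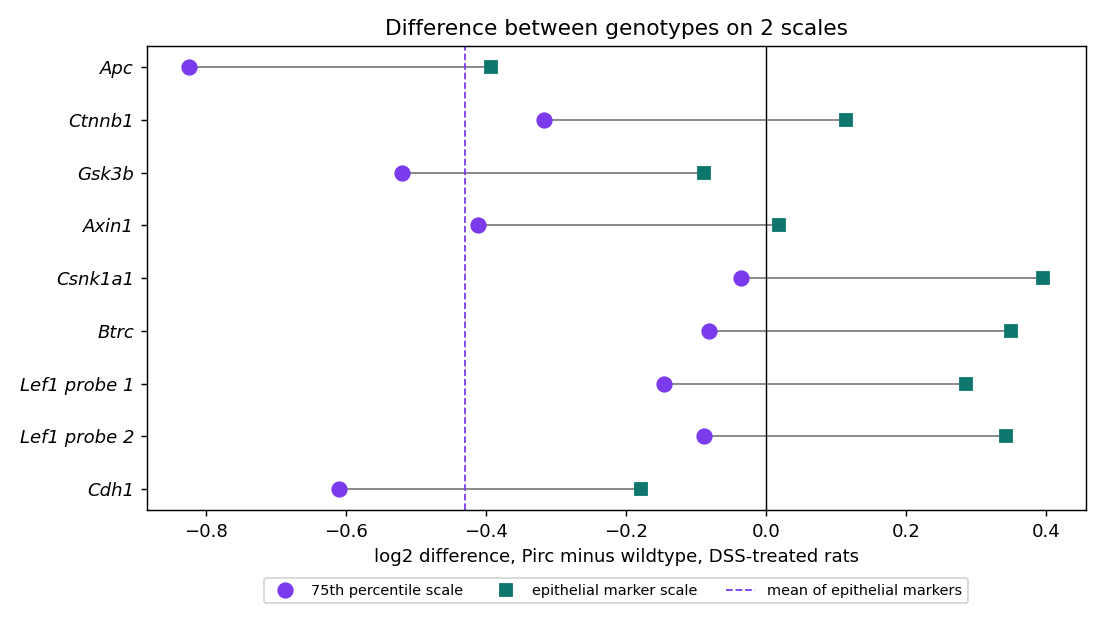
Log2 difference of DSS-treated Pirc from DSS-treated wildtype rats for each member probe, on the scale of the 75th percentile of the array (circles) and on the scale of the mean of 11 epithelial marker genes (squares). The dashed line is the mean difference of those markers on the first scale (-0.43, or -0.25 without Slc26a3), which is the distance between circle and square; Apc moves from -0.82 to -0.39 and Axin1 from -0.41 to 0.02.

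Genes of stratified and urothelial epithelium, which the colon lacks, rose with DSS, 7 of 9 in Pirc and 3 of 9 in wildtype rats. Their mean level ran from -0.78 to 0.77 in DSS-treated Pirc rats, from -4.61 to 0.10 in DSS-treated wildtype rats and from -4.80 to -4.04 in untreated rats. Of the genes of this list 3 were higher in Pirc than in wildtype rats after DSS (Krt6c, Krt13 and Upk3a). The part of this tissue in the levels of Apc, Axin1, Gsk3b, Btrc and Cdh1 was not tested.

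Beside Lef1, markers of T cells rose with DSS over both genotypes for 3 of 10 genes (Cd2, Zap70 and Il7r), of which Cd2 was well above background on 4 arrays. The other 7 did not pass, among them Cd3d (0.29), Cd3e (1.08), Lck (-0.06) and Cd8a (-0.69, and -1.72 in Pirc rats). The mean level of the 10 genes ran from -5.84 to -4.63 in DSS-treated and from -6.03 to -5.48 in untreated wildtype rats. In Pirc rats it ran from -5.52 to -5.07 with DSS and from -5.99 to -5.18 without it. Of fibroblast markers 8 of 8 rose with DSS over both genotypes, by a median of 2.08, and of myeloid markers 6 of 8, by a median of 2.05. Their part in the rise of Lef1 was not tested.

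Other genes of the pathway were taken in 6 lists. Of 26 measured genes of the destruction complex and its control, 1 rose and 1 fell with DSS over both genotypes, and 2 were higher and 4 lower in Pirc rats over both treatments. The median with genotype was -0.09 against -0.06 for all probes. With DSS the Wnt coreceptor gene Lrp5 rose (0.30 ± 0.09, adjusted p = 0.0313 in limma) and the kinase gene Csnk1g2 fell (-0.30 ± 0.07, adjusted p = 0.00949).

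Axin2, the inducible counterpart of Axin1, went the other way from it with genotype. It was higher in Pirc rats by 0.75 ± 0.12 over both treatments (adjusted p = 0.00207 in limma) and by 1.24 ± 0.18 after DSS (adjusted p = 0.000837), while the untreated difference of 0.26 did not pass (adjusted p = 0.648). Both Axin1 calls with genotype were lost without some single rats. On the scale of the 11 epithelial genes Axin1 was at 0.03 over both treatments and 0.02 after DSS. Dvl1, which relays the Wnt signal to the complex, was higher in Pirc rats over both treatments by 0.39. The genes lower over both treatments were Csnk1g3 (-0.31), Ppp2r5a (-0.30), Ppp2r5e (-0.29) and Csnk1d (-0.22), which encode kinases and regulatory subunits of protein phosphatase 2A. After DSS 2 were higher and 4 lower, among the latter Amer1, which tethers Apc to the membrane, with -0.63 ± 0.18 (adjusted p = 0.0256). Amer1 was named after its value was seen.

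Of 24 nuclear partners of beta-catenin, none rose and 2 fell with DSS. These were Cby1, an antagonist of beta-catenin (-0.79 ± 0.16, adjusted p = 0.00295 in limma), and the corepressor gene Tle1 (-0.34). Over both treatments the kinase gene Nlk was higher in Pirc rats (0.28) and Tbl1x (-0.34) and Tle5 (-0.31) were lower, and none passed after DSS alone. The median with DSS was -0.11 against 0.06 for all probes.

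Of 17 genes of cadherins and the adherens junction, 4 rose with DSS and none fell. They were Cdh13 (1.8 ± 0.28), Nectin4 (1.01 ± 0.19), the intestinal cadherin gene Cdh17 (0.65 ± 0.11) and Jup (0.35 ± 0.10), the gene of plakoglobin, a close relative of beta-catenin. Nectin4 rose in Pirc rats (2.01, adjusted p = 0.000283 in limma) and was at 0.01 in wildtype rats (adjusted p = 0.99), but the difference between the DSS effects passed for no gene of the list. With genotype over both treatments Nectin4 was higher in Pirc rats (0.79), and Vcl (-0.48), Jup (-0.33) and Afdn (-0.27) were lower. After DSS Ctnna1, whose product links beta-catenin to actin, was lower too (-0.48 ± 0.15, adjusted p = 0.0366), as was Nectin3, and both were named after their values were seen.

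Of 5 measured repressors of Cdh1, 3 rose with DSS over both genotypes. Zeb2 rose by 2.47 ± 0.40 (adjusted p = 0.000656 in limma). Snai2 (2.32) was well above background on 7 arrays and Twist1 (0.76) on 1, so that their changes rest on dim values. Snai1 was higher in Pirc rats over both treatments by 0.94 ± 0.21 (adjusted p = 0.00847) and after DSS by 1.26. Mesenchymal cells also express Zeb2, Snai2 and Twist1, and the fibroblast markers rose in the same comparison. The part of such cells in these changes was not tested.

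Of 7 cytoskeletal partners of Apc, none passed with DSS over both genotypes and 3 were lower in Pirc rats over both treatments. Mapre3, of the family of microtubule end binding proteins, was lower by -1.25 ± 0.20 (adjusted p = 0.0019 in limma) and after DSS by -1.90 ± 0.29 (adjusted p = 0.00119). The kinesin subunit gene Kif3b was lower by -0.50 and Dlg1, whose product binds the end of Apc, by -0.34. After DSS 4 of 7 fell, with a median of -0.53 against -0.11 for all probes.

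Of 16 measured Wnt target genes, 3 rose with DSS over both genotypes (Mmp7 by 4.26, Cd44 by 2.38 and Sp5 by 0.56) and none fell. Axin2 is counted in this list too. In Pirc rats 6 were higher over both treatments and none lower, led by Mmp7 (2.99 ± 0.33), Cd44 (1.21 ± 0.23), Myc (1.07 ± 0.21) and Cdca7 (1.06 ± 0.19). None of the 16 passed in untreated rats in limma, where the differences ran from -1.44 to 1.46. The highest was that of Mmp7 (adjusted p = 0.311). Mmp7 and Cd44 are expressed in injured and inflamed epithelium as well, and the myeloid markers rose with DSS in both genotypes (6 of 8 in each). After DSS 2 of the 8, S100a8 (2.82) and S100a9 (3.25), were also higher in Pirc than in wildtype rats, and 6 did not pass. So were 2 of 10 T cell markers (Cd3g and Il7r) and 1 of 3 markers of B and plasma cells (Tnfrsf17). The part of such cells in the values of the Wnt target genes was not tested.

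**Figure D4:**
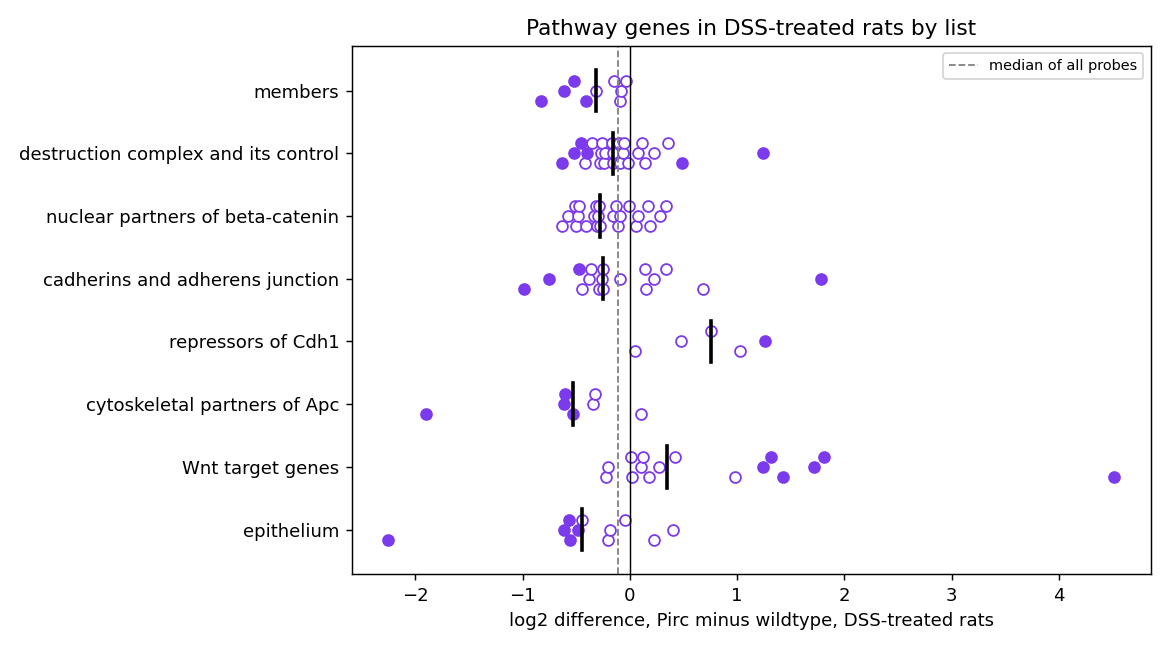
Log2 difference of DSS-treated Pirc from DSS-treated wildtype rats for each gene of the 9 member probes, of the 6 pathway lists and of the epithelial markers; black bars are list medians, filled symbols passed the test, and the dashed line is the median of all probes (-0.11). Medians run from -0.53 for cytoskeletal partners of Apc to 0.76 for repressors of Cdh1, and the point at 4.52 is Mmp7. The median of 0.76 is the value of the dim Twist1 probe, which did not pass, and 1 of the 5 repressors passed.

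The genes whose level over the 16 arrays was most like that of a member were sought among 10362 genes well above background on all arrays. Pearson's r was 0.915 for Dock8, 0.915 for Lrba and 0.913 for Fyco1 with Apc. It was 0.962 for Map4, 0.951 for Abhd17c and 0.947 for Fat1 with Cdh1, and 0.962 for Minpp1, 0.956 for Tapbp and 0.953 for Wdtc1 with Axin1. With Btrc it was 0.934 for Tmem143, 0.934 for Pierce2 and 0.932 for Rxrb, and with Gsk3b 0.929 for Flii, 0.916 for Panx1 and 0.912 for Ist1. Ctnnb1 was followed less closely, with 0.754 for Stom, 0.753 for Stk24 and 0.751 for Ctnna1, as was Csnk1a1, with 0.698 for Tmem125, 0.683 for Hsd17b14 and 0.679 for RGD1563302. For the dim Lef1 probe the values were 0.879 for Tpm2, 0.878 for Flna and 0.878 for Bach2. Among the members, Gsk3b and Cdh1 were the closest pair (r = 0.835), and Btrc and Cdh1 were unrelated (r = 0.00441). The points share their arrays and the 4 groups, so these values describe the group pattern and carry no test.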

How the data were processed

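The authors deposited, for each array, the Agilent Feature Extraction output, from which the processed signal was used, which is a linear intensity with the background already subtracted and no normalization across arrays. The submitters' notes name Partek. Of 62976 spots per array 4259 controls were left out, and outlier-flagged spots were dropped before the spots of a probe were averaged. Each array was scaled to its 75th percentile (875 to 2194). Between 71.1% and 80.3% of spots were well above background and 0 were saturated. Precision is limited by how many arrays there are.

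The files hold accessions, which were matched to a RefSeq gene table (GRCr8): 18006 of 30367 probes gave 15159 symbols and 12361 gave none. Probe positions are not given, because the array design used an older build. Where a gene had several probes, the one with the highest mean led.

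All 16 arrays entered a linear model with 1 mean per group (lmFit and eBayes of limma 3.58.1, R 4.3.3), 7 comparisons were drawn from it, and the procedure was tested on simulated data. The labels name single rats, so p-values measure the spread between rats. Members, marker lists and pathway lists were chosen with earlier results of these data known. All members were named. Of each pathway list, up to 4 rises and 4 falls with the largest changes that passed in the DSS effect or the Pirc effect over all rats were named, and 3 genes most correlated with each member.

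Alternatives were quantile normalization, median scaling, normexp with an offset of 50, a floor, a filter on dim probes, flagged spots kept, averaged probes, slide or array row as a block, fits of the compared groups only, no moderation, other thresholds and each rat left out. Single slides and scaling to epithelial markers, with or without Slc26a3, were added after the data were seen.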

Additional observations from a re-analysis of the deposited data

Results flagged for a closer look

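In 3 of 36 groups of 4 rats (9 probes in 4 groups) 1 rat stood apart from the other 3 by Dixon's test at the 95% level, where chance alone gives 1.8. For Apc, untreated wildtype rat 21 stood at -2.94, above the other 3 rats at -3.39 to -3.32. For Gsk3b, DSS-treated wildtype rat 26 stood at 0.44, below the other 3 at 0.76 to 0.81. For the brighter Lef1 probe, untreated Pirc rat 15 stood at -8.52, below the other 3 at -7.67 to -7.55, and all 4 of these values were not well above background.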

How the results depend on the processing

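Counts of the 9 member probes that passed changed as follows. Shares of all probes that passed in the alternative fits are not given, so these counts do not set the members apart from other probes. With DSS the counts were 3 in all rats, 4 among Pirc rats and 1 among wildtype rats, and those with the Pirc allele 3 over both treatments and 4 after DSS. Each slide alone, with 2 rats per group, left 0 in all of them, except for DSS over both genotypes with 2 in slide 1 and 0 in slide 2. Asking for a factor of 2 as well left 1, 1 and 0 with DSS and 0 and 0 with genotype. Fits of the compared groups only left 1 with DSS in Pirc rats, 0 in wildtype rats and 2 between genotypes after DSS. Scaling to epithelial markers left 1 in Pirc and 0 in wildtype rats with DSS, and 1 over both treatments and 1 after DSS with genotype, which was Csnk1a1 in both. Without Slc26a3 among those markers the counts with DSS were 3 in all rats, 3 among Pirc rats and 0 among wildtype rats, and those with genotype 0 over both treatments and 1 after DSS. With DSS in wildtype rats slide as a block gave 2, array row as a block 0, averaged probes 2 and an adjusted p of 0.10 as threshold 2. In untreated rats and for the difference between the DSS effects the count was 0 in every fit run.

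Leaving out 1 rat at a time gave 1 to 4 with DSS in Pirc rats (1 without rat 11, 15 or 20), 0 to 1 in wildtype rats and 2 to 4 between genotypes after DSS (2 without rat 12 or 20). Of the 15 calls on single members 6 held whichever rat was left out. These were Btrc and the brighter Lef1 probe with DSS over both genotypes, and Apc and Cdh1 with genotype over both treatments and after DSS. In 5 cases a value that had not passed did so with 1 rat left out. They were 2 for Gsk3b with genotype over both treatments and 1 for Ctnnb1 with genotype after DSS. The brighter Lef1 probe with DSS in wildtype rats and the dimmer one with DSS over both genotypes gave 1 each.

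The sign turned for 2 of the 15 calls, both for Axin1 on the epithelial scale, where the difference between genotypes was 0.029 over both treatments and 0.0185 after DSS. All other turned signs were of values that had not passed. Median scaling gave -0.00181 for Csnk1a1 with DSS over both genotypes and -0.0042 for Apc between untreated genotypes. Quantile normalization gave 0.00265 for Csnk1a1 with genotype over both treatments and -0.00486 for Apc between untreated genotypes. Normexp gave -0.0407 for Apc between untreated genotypes. For the dimmer Lef1 probe it gave 0.00055 with genotype over both treatments, 0.0284 in untreated rats and -0.0556 for the difference between DSS effects. For the brighter Lef1 probe that difference was -0.00715 with normexp and -0.00811 with a floor.

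Leaving out 1 rat also turned signs, with these ranges. With DSS over both genotypes Csnk1a1 ran from -0.0131 to 0.0206. With DSS in Pirc rats Ctnnb1 ran from -0.0794 to 0.107, Csnk1a1 from -0.0613 to 0.00591 and Cdh1 from -0.0956 to 0.0191. With genotype over both treatments Csnk1a1 ran from -0.0212 to 0.0108 and the dimmer Lef1 probe from -0.26 to 0.0404. Between untreated genotypes Apc ran from -0.0249 to 0.13, Gsk3b from -0.18 to 0.0372, Csnk1a1 from -0.00659 to 0.0574, the brighter Lef1 probe from -0.86 to 0.0457 and the dimmer from -0.42 to 0.17. After DSS the brighter Lef1 probe ran from -0.38 to 0.0178 and the dimmer from -0.29 to 0.15. For the difference between DSS effects Btrc ran from -0.0112 to 0.12, the brighter Lef1 probe from -0.19 to 0.72 and the dimmer from -0.26 to 0.33.

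No paired analysis was possible because the rats carry individual numbers that no groups share. Gsk3b with genotype over both treatments (-0.30, adjusted p = 0.0626 in limma) passed with quantile normalization, normexp, a floor, a filter on dim probes or no moderation (adjusted p = 0.0291 to 0.0478). Apc with DSS over both genotypes passed with quantile normalization alone (-0.34, adjusted p = 0.0366). Axin1 with genotype over both treatments did not pass with quantile normalization (adjusted p = 0.0625) or array row as a block (adjusted p = 0.0561). Signal over background limits Lef1.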
